A study of Mus musculus with 11 samples.

Results

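A set of 10 genes that build the cytoskeleton of young neurons was followed in mice at postnatal day 2, in cells sorted from the V-SVZ, the ventricular-subventricular germinal layer that lines the lateral ventricles. They are Dcx, Dclk1, Tubb3, Tubb2b, Stmn2, Stmn4, Dpysl3, Map2, Mapt and Gap43, taken by symbol from the 39179 genes of the count table, and all 10 were present and passed the filter on low counts. Both groups carried Gsh2-Cre, in which Cre is made where Gsh2 is active, and the RCE reporter, and GFP-positive cells were sorted. The 5 mutant libraries came from Gsh2-Cre; Zeb2fl/ko animals, with 1 floxed and 1 null allele of Zeb2, which encodes a DNA-binding zinc finger protein. The 6 control libraries came from Gsh2-Cre; Zeb2fl/wt animals, with 1 floxed and 1 wild-type allele. Both groups were of the CD1/Swiss strain. Since the controls carried Cre and a floxed allele too, their sorted cells would lose 1 copy of Zeb2 as well, and the null allele of the mutants was not limited to the Gsh2 lineage. The labels do not say whether each library came from 1 animal, so p-values measure the spread between libraries.

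Neuroblasts born in the V-SVZ migrate with a leading process filled with microtubules, which are polymers of alpha- and beta-tubulin. Doublecortin proteins, tau and MAP2 bind and steady microtubules, stathmins bind free tubulin dimers and favour disassembly, and collapsin response mediator proteins (CRMPs) and GAP-43 act in growth cones, the motile tips of growing processes. Dcx and Tubb3 are widely used to label newborn neurons in this region.

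The 10 genes were abundant in every library, with 2118 to 52280 counts per gene and library. Their summed level was 9628 to 11929 CPM (depth-scaled counts, adjusted by TMM factors as all CPM values here) in mutant libraries and 10785 to 12216 CPM in control libraries. One of the 10, Dpysl3, passed the test and was lower in mutants, and none was higher, where 4.42% of the 14104 genes tested passed, 1.74% lower and 2.68% higher in mutants (edgeR, adjusted p of at most 0.05). DESeq2 likewise called 1 of the 10, lower, and limma-voom called 1 lower and 1 higher. Over all genes, DESeq2 called 1201 of 24865 with a p-value, 662 higher and 539 lower. Of the 14104 genes, limma-voom called 934, 555 higher and 379 lower. The median log2 fold change of the 10 was -0.059, against -0.0198 over all genes tested, and 4 of the 10 differed at an unadjusted p of at most 0.05, against 17.3% of all genes. Estimates ran from -0.29 for Dpysl3 to 0.51 for Dcx. In bulk samples, fewer cells of a type and less RNA per cell cannot be told apart.

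**Figure D1:**
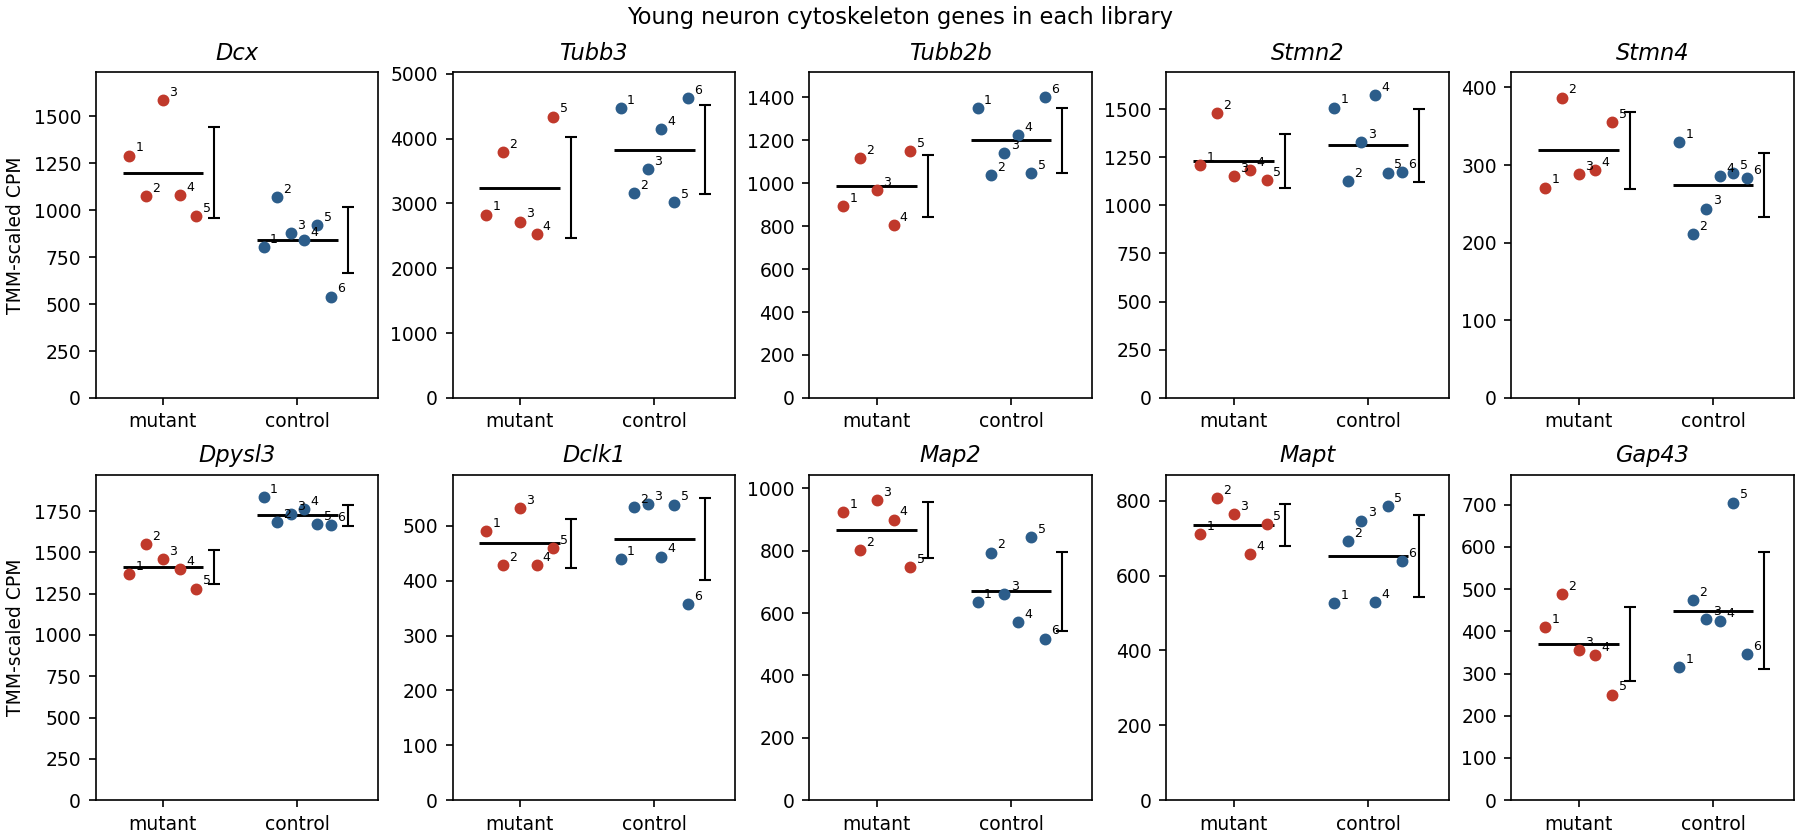
TMM-scaled CPM of each gene (y axis, linear from 0) in the 5 mutant libraries (red, left) and 6 control libraries (blue, right), numbered by replicate, with the mean as a bar and the SD beside it. Dpysl3 is the gene whose groups do not overlap, with mutants between 1281 and 1550 CPM and controls between 1665 and 1832 CPM.

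The libraries were 6833981 to 13073505 counts deep. Zeb2 itself stood at 214 to 365 CPM in the libraries labelled mutant and 154 to 281 CPM in controls (log2 fold change 0.35, SE 0.165, adjusted p = 0.294). A gene-level count includes exons outside the deleted part, so it does not check the genotype. No mutant library held counts of 4 Y-linked genes, while 4 of the 6 control libraries (1, 2, 3 and 6) held 763 to 2716, so sex and genotype were partly confounded. Summed markers of neuroblasts and young neurons (18 of 18 in the table) were 6390 to 7410 CPM in mutants and 5490 to 7600 CPM in controls. Those of dividing cells (12 of 12) were 253 to 451 and 417 to 830 CPM in mutants and in controls, and those of the oligodendrocyte lineage (11 of 11) 609 to 975 CPM in mutants and 820 to 2420 CPM in controls, with control 6 highest. Radial glia and astrocyte markers (12 of 12) summed to 1160 to 2200 CPM in mutants and 1390 to 2520 CPM in controls. Microglial markers summed to at most 9.4 CPM in mutants and 10.4 CPM in controls, and endothelial and pericyte markers to at most 20.6 and 45.4 CPM, in the same order. Ependymal and choroid plexus markers reached 215 CPM in mutant 5 and at most 7.12 CPM in the other mutants and 15.0 CPM in controls. Of the 6 genes summed, Foxj1 and Rsph1 averaged 4.31 ± 0.74 and 1.18 ± 0.719 CPM in mutants. Ccdc153, Tmem212 and Folr1 averaged under 1 CPM over all libraries, so most of the 215 CPM was left to Ttr. The part of these cell types in the results below was not tested.

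Dpysl3 (ENSMUSG00000024501, chromosome 18), which encodes the collapsin response mediator CRMP4 of growth cones, fell in mutants. Mutant libraries 1 to 5 held 1368, 1550, 1461, 1399 and 1281 CPM, and control libraries 1 to 6 held 1832, 1683, 1733, 1761, 1672 and 1665 CPM. Every mutant library lay below every control, as for 2.03% of genes tested, while 2.89% had every mutant above every control, 4.91% in all. None of the other 9 genes had groups that did not overlap. The means were 1412 ± 101 CPM in mutants (SD, n = 5) and 1724 ± 64.7 CPM in controls (SD, n = 6), a log2 fold change of -0.29 (SE 0.0743, 95% interval -0.45 to -0.13, adjusted p = 0.0386). This was a small change of a gene with little spread: the coefficient of variation was 7.13% in mutants and 3.76% in controls, the lowest of the 10 genes in both groups. Tubb2b and Gap43 had nearly the same log2 fold change, -0.28 each, without passing.

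The call of Dpysl3 with edgeR was marginal. Of 11 fits that left out 1 library it passed in 2, those without mutant 2 (adjusted p = 0.0395) or control 6 (0.0322), and adjusted p was 0.051 to 0.105 in the other 9, with log2 fold changes between -0.32 and -0.26 in all 11. It also did not pass without a filter on low counts (-0.27, adjusted p = 0.102) or among the 5 mutant and 2 control libraries without Y-linked counts (-0.28, adjusted p = 0.356). DESeq2 (-0.286, adjusted p = 0.00176) and limma-voom with library weights (-0.285, adjusted p = 0.00785) called it lower. These tools called 1201 and 934 genes in all, against 623 with edgeR. Within the CRMP family, Dpysl3 took 18.7% to 23.3% of the counts in mutants and 22.4% to 24.8% in controls, so these shares overlapped. Its relatives Dpysl2, at 1290 ± 99.8 CPM in mutants and 1680 ± 390 CPM in controls, and Crmp1, Dpysl4 and Dpysl5 did not pass (log2 fold changes -0.38, -0.17, 0.12 and 0.12).

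Dcx (ENSMUSG00000031285, chrX:143855842-143933311, minus strand, GRCm38), which encodes doublecortin, a microtubule-binding protein needed for neuronal migration, had the largest estimate of the 10 genes and did not pass. Mutant libraries 1 to 5 held 1291, 1076, 1585, 1082 and 971 CPM, and control libraries 1 to 6 held 805, 1072, 880, 841, 921 and 540 CPM. Of the 5 mutants 4 lay above every control, the nearest by 4.8 CPM, and mutant 5 lay between control 5 and control 2. The means were 1201 ± 244 CPM in mutants (SD, n = 5) and 843 ± 175 CPM in controls (SD, n = 6), a log2 fold change of 0.51 (SE 0.158, 95% interval 0.17 to 0.85, adjusted p = 0.0892). It was past the threshold with limma-voom and library weights (0.49, adjusted p = 0.0389) and not with DESeq2 (0.51, adjusted p = 0.0512). Dcx is X-linked. The controls without Y-linked counts, 4 and 5, held 841 and 921 CPM, and the other controls spanned 540 to 1072 CPM. Among libraries without Y-linked counts the estimate for Dcx was 0.453 (adjusted p = 0.338), and with a Y-linked covariate 0.516 (adjusted p = 0.419). The part of sex in the level of Dcx was not tested.

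Dclk1, which encodes a kinase with doublecortin domains, was at nearly the same level in both groups. It held 490, 429, 532, 429 and 460 CPM in mutant libraries 1 to 5, and 358 CPM at the lowest, 489.5 CPM at the median and 540.5 CPM at the highest in controls (log2 fold change -0.03, SE 0.116, 95% interval -0.27 to 0.22, adjusted p = 0.942). The interval limits its change to between 0.828-fold and 1.17-fold. As a share of the counts of the doublecortin family (Dcx, Dclk1, Dclk2, Dclk3, Dcdc2a, Dcdc2b, Dcdc2c and Rp1), which does not depend on the scaling between libraries, Dclk1 took 19.4% to 22% in mutants and 23.0% to 27.8% in controls, and these ranges lay apart. The difference in mean share was -4.55 percentage points, or -2.12 when counts were divided by exon length. Dcx took 52.6% ± 4.20 in mutants (SD, n = 5) and 44.4% ± 4.24 in controls (SD, n = 6), with mutant 5 at 46.5% within the control range of 37.0% to 49.3%. Dclk3, a further kinase gene of the family, fell in mutants (13.3 ± 4.94 CPM in mutants and 66.2 ± 33.3 CPM in controls, log2 fold change -2.32, adjusted p = 0.00197) and took 0.292% to 0.927% of the family in mutants and 1.72% to 5.72% in controls. Shares of a family are parts of the same whole, so the lower share of Dclk1 is not separate from the higher one of Dcx. The shares are a description and were not tested.

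Start regions of 4 of the 10 genes, Dcx, Dclk1, Tubb3 and Map2, were examined in RefSeq (GRCm38.p6). Start regions of the other genes, Dpysl3 among them, were not examined, which does not mean that RefSeq lists none for them. Those of Dcx and Dclk1 are shown as the doublecortin genes of the set, ZEB proteins being known to bind the E-box CACCTG. Each window runs from 250 bases before to 50 bases after an annotated start, 5′ to 3′ on the gene's strand, and capitals mark CACCTG or its reverse complement CAGGTG, and the shorter core CACCT or AGGTG, which the longer motif contains. The Dcx window, 1 of 2 that overlap, is chrX:143933170-143933469 on the minus strand and the Dclk1 window, at the second of 2 listed starts, is chr3:55461478-55461777 on the plus strand.
Dcx: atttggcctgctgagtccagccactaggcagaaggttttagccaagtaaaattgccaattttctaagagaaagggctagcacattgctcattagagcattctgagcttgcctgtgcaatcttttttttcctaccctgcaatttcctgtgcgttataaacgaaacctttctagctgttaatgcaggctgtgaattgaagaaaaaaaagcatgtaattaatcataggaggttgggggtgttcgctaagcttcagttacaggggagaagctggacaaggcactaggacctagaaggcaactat
Dclk1: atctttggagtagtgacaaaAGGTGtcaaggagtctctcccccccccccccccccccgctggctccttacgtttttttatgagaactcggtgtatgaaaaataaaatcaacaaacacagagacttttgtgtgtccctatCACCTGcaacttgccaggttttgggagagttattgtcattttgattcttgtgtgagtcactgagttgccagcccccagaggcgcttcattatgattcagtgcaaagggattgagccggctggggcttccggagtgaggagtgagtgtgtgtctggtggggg
Neither motif was found in the windows of Dcx, Tubb3 or Map2. The Dclk1 window shown held the E-box once, and the window at its first start held the core alone, once. Of all 22220 RefSeq windows, 20.2% held the E-box and 51.9% the core. A match is a description of these letters and not of binding.

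Tubb3 and Tubb2b, which encode neuronal beta-tubulin isotypes, had lower means in mutants and did not pass. Tubb3 (ENSMUSG00000062380, chr8:123411424-123422015, plus strand) held 2829, 3793, 2721, 2534 and 4342 CPM in mutant libraries 1 to 5, and 4476, 3161, 3531, 4152, 3026 and 4632 CPM in control libraries 1 to 6. The groups overlapped widely, with 3 mutants below every control and mutant 5 above 4 of the 6 controls (log2 fold change -0.24, SE 0.154, 95% interval -0.57 to 0.09, adjusted p = 0.466). Tubb2b (ENSMUSG00000045136, chr13:34126748-34130466, minus strand) held 895, 1118, 967, 807 and 1150 CPM in mutant libraries 1 to 5, and 1349, 1038, 1140, 1223, 1049 and 1402 CPM in control libraries 1 to 6. All 5 mutants lay below the control mean and 3 below every control (log2 fold change -0.28, SE 0.114, adjusted p = 0.212).

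The shares of Tubb3 and Tubb2b among the beta-tubulins were nearly the same in both groups. Tubb3 took 26.1% ± 1.63 of all beta-tubulin counts in mutants (SD, n = 5) and 25.9% ± 0.93 in controls (SD, n = 6), and Tubb2b 8.07% ± 0.556 in mutants and 8.18% ± 0.384 in controls. Tubb5, the isotype with most counts, took 51.6% ± 1.71 in mutants and 54.5% ± 1.32 in controls, and Tubb2a ran from 5.91% to 8.06% in mutants and from 4.73% to 8.10% in controls. Tubb4a, chosen here after its values were seen, took 6.01% to 6.96% in mutants and 3.99% to 4.89% in controls, ranges that lay apart, although its level did not pass (794 ± 151 CPM in mutants and 675 ± 132 CPM in controls, log2 fold change 0.24, adjusted p = 0.454).

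**Figure D2:**
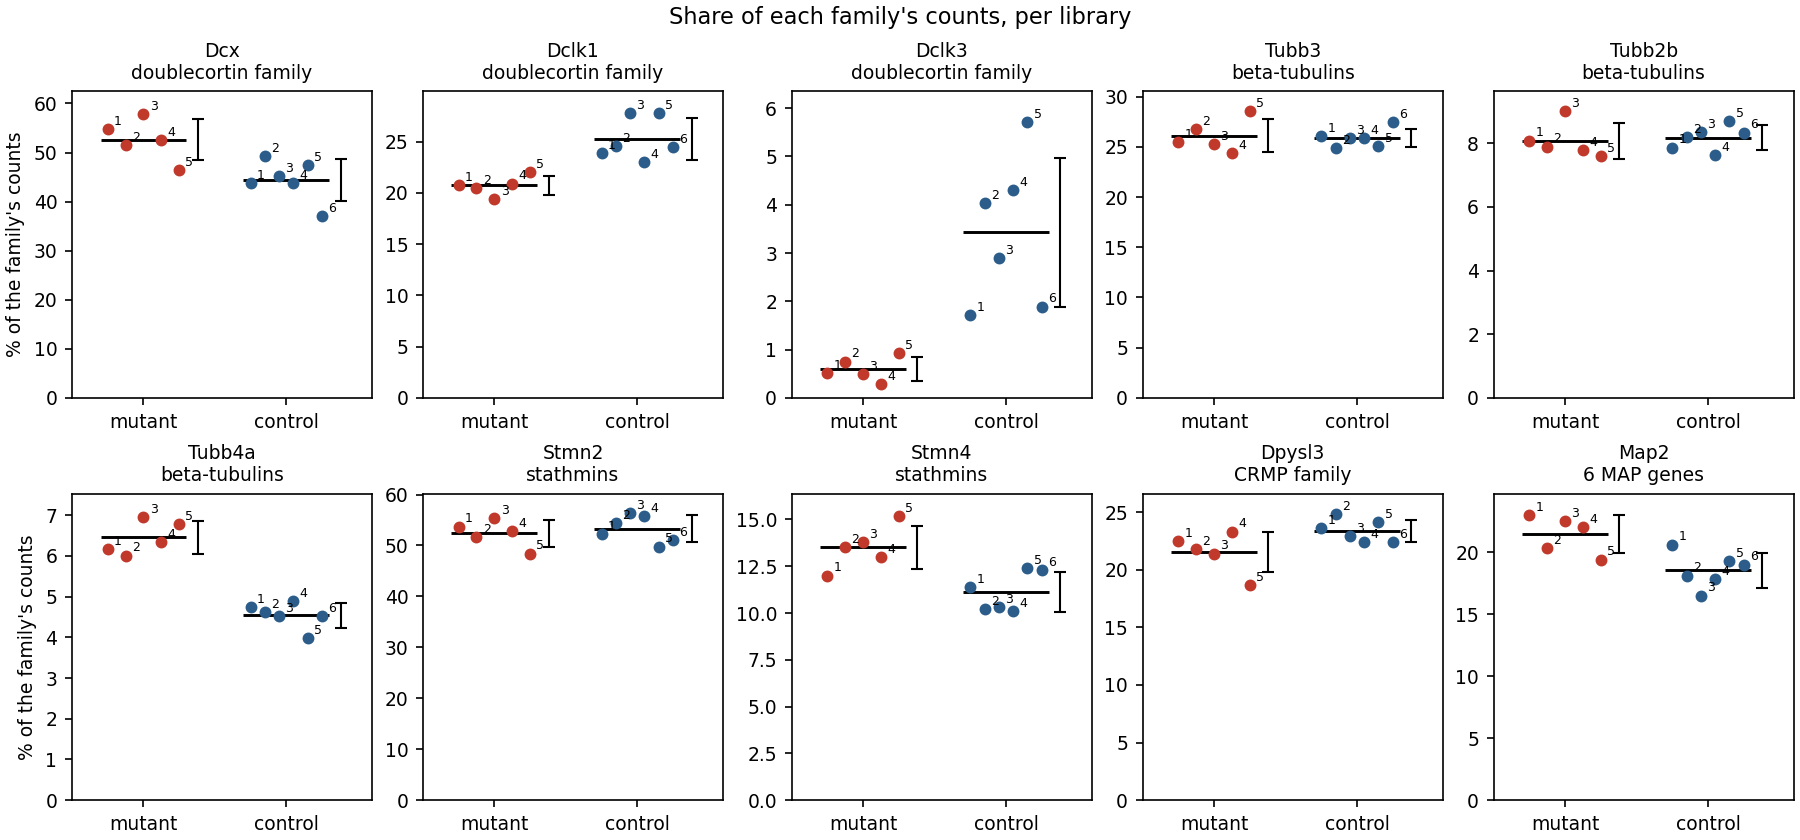
Percent of a family's counts taken by single genes (y axis, linear from 0) in mutant (red, left) and control libraries (blue, right), numbered by replicate, with mean and SD. Ranges of Dclk1, Dclk3 and Tubb4a lie apart, while Tubb3, at 24.4% to 28.6% in mutants and 24.9% to 27.5% in controls, and Tubb2b overlap. Ranges of every other gene in these families, shown or not, overlap as well. MAP stands for microtubule-associated protein, the 6 being Map1a, Map1b, Map2, Map4, Map6 and Mapt.

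The ends of the coding sequences are shown for these isotypes because they bear on how far reads can tell the tubulins apart. The last 60 coding bases, stop codon included, come from the GENCODE M21 transcripts (GRCm38), and capitals mark bases of Tubb2a and Tubb3 that were not identical to Tubb2b when whole coding sequences were aligned.
Tubb2b: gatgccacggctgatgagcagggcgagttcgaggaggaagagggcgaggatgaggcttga
Tubb2a: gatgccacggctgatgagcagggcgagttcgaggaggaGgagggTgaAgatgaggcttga
Tubb3: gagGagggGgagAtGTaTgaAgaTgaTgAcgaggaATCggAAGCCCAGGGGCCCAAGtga
They lie at chr13:34127471-34127530 (minus strand), chr13:34074468-34074527 (minus strand) and chr8:123421623-123421682 (plus strand). Tubb2a differed from Tubb2b at 3 of these 60 bases and was 96.5% identical over the coding sequence, whereas Tubb3 differed at 30 of the 60. Of all words of 50 bases in Tubb2b transcripts 31.3% also occurred in Tubb2a, and none of those in Tubb3 occurred in another gene, so counts of Tubb2b are uncertain where the authors' counting could split reads, and those of Tubb3 less so. For the other 8 genes at most 0.893% of such words were shared. Tubb2a itself stood at 827 ± 95.3 CPM in mutants and 877 ± 95.1 CPM in controls.

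Stmn2 and Stmn4, which encode neuronal stathmins, did not pass and had estimates of opposite sign. Stmn2 held 1209, 1479, 1151, 1184 and 1131 CPM in mutant libraries 1 to 5, and 1126 CPM at the lowest, 1251 CPM at the median and 1571 CPM at the highest in controls, so all mutants lay within the control range (log2 fold change -0.09, SE 0.109, 95% interval -0.33 to 0.14, adjusted p = 0.733). Stmn4 held 271, 387, 288, 293 and 355 CPM in mutants, and 211, 284 and 330 CPM at the lowest, median and highest in controls (log2 fold change 0.22, SE 0.127, adjusted p = 0.412). Mutants 2 and 5 were above every control. Of the stathmin counts (Stmn1 to Stmn4), Stmn4 took 13.5% ± 1.17 in mutants and 11.1% ± 1.04 in controls, while Stmn2 took 52.4% ± 2.57 in mutants and 53.3% ± 2.67 in controls. The lowest mutant, at 12%, was within the control range of Stmn4 shares, which reached 12.4%.

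Map2, which encodes a microtubule-associated protein of dendrites and cell bodies, had higher means in mutants without passing. It held 925, 802, 963, 900 and 747 CPM in mutant libraries 1 to 5, and 636, 794, 660, 570, 844 and 518 CPM in control libraries 1 to 6. Every mutant was above the control mean and 3 were above every control (log2 fold change 0.37, SE 0.126, 95% interval 0.10 to 0.64, adjusted p = 0.122). Without control 5 the estimate was 0.45 and passed (adjusted p = 0.0496). An exon of Gm10558 overlaps 124 bases of Map2 on the opposite strand, and Gm10558 averaged 8.83 CPM. Mapt, which encodes tau, a microtubule-associated protein of axons, held 711, 807, 765, 658 and 738 CPM in mutants, and 526.1, 665 and 785 CPM at the lowest, median and highest in controls (log2 fold change 0.17, SE 0.114, adjusted p = 0.483). The spread was larger among controls for both genes, with coefficients of variation of 10.4% in mutants and 18.9% in controls for Map2, and of 7.65% and 16.7% in the same order for Mapt.

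Gap43, which encodes a membrane phosphoprotein of growth cones, varied most between control libraries. It held 410, 489, 356, 343 and 250 CPM in mutant libraries 1 to 5, and 315, 473, 429, 425, 705 and 347 CPM in control libraries 1 to 6. Control 5 was highest and mutant 5 lowest, and the groups overlapped (log2 fold change -0.28, SE 0.198, 95% interval -0.70 to 0.14, adjusted p = 0.515). Without control 5 the estimate was -0.107 (adjusted p = 0.796), and among libraries without Y-linked counts, where control 5 is 1 of 2 controls, it was -0.604 (adjusted p = 0.332).

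**Figure D3:**
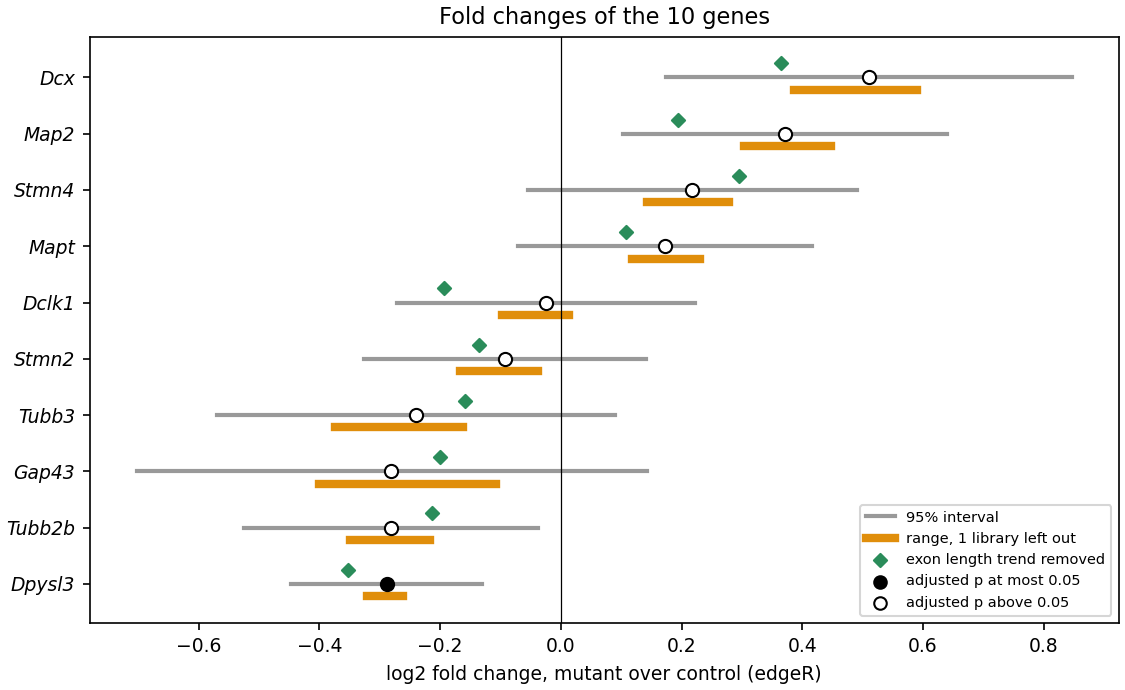
Log2 fold change of mutant over control for the 10 genes (x axis), with 95% intervals (grey), the range over the fits without 1 library (orange) and the estimate after removal of each library's exon length trend (green). The filled point, Dpysl3 at -0.29, passed at an adjusted p of 0.0386.

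The 10 genes did not vary together. Tubb3 and Tubb2b were highest in mutants 2 and 5 among mutants and in controls 1, 4 and 6 among controls, and Dcx and Map2 were lowest in these same libraries of each group. The genes differ in length, with 1868 and 2294 exonic bases for Tubb3 and Tubb2b against 12647 and 16449 for Dcx and Map2. Over 13974 genes, those 5 libraries were also the ones in which log2 CPM, relative to the mean of all libraries, had a negative slope on exon length. The slopes per doubling of length were -0.0157 and -0.00396 in mutants 2 and 5, and -0.131, -0.102 and -0.0348 in controls 1, 4 and 6. In the other 6 libraries they were 0.0116 to 0.0957, and the steepest was that of mutant 3. With this trend removed from each library, a fit chosen after the values were seen, Map2 moved to 0.19 (adjusted p = 0.191), Dcx to 0.37 (adjusted p = 0.122), Tubb3 to -0.16 (adjusted p = 0.614) and Dclk1 to -0.19 (adjusted p = 0.247). Dpysl3 passed there too, at -0.35 (adjusted p = 0.0209). Mutant 5 had the lowest Dcx and Map2 of the mutants, and control 6 the lowest of all. These were also the libraries named above, mutant 5 for Ttr and control 6 for oligodendrocyte markers.

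**Figure D4:**
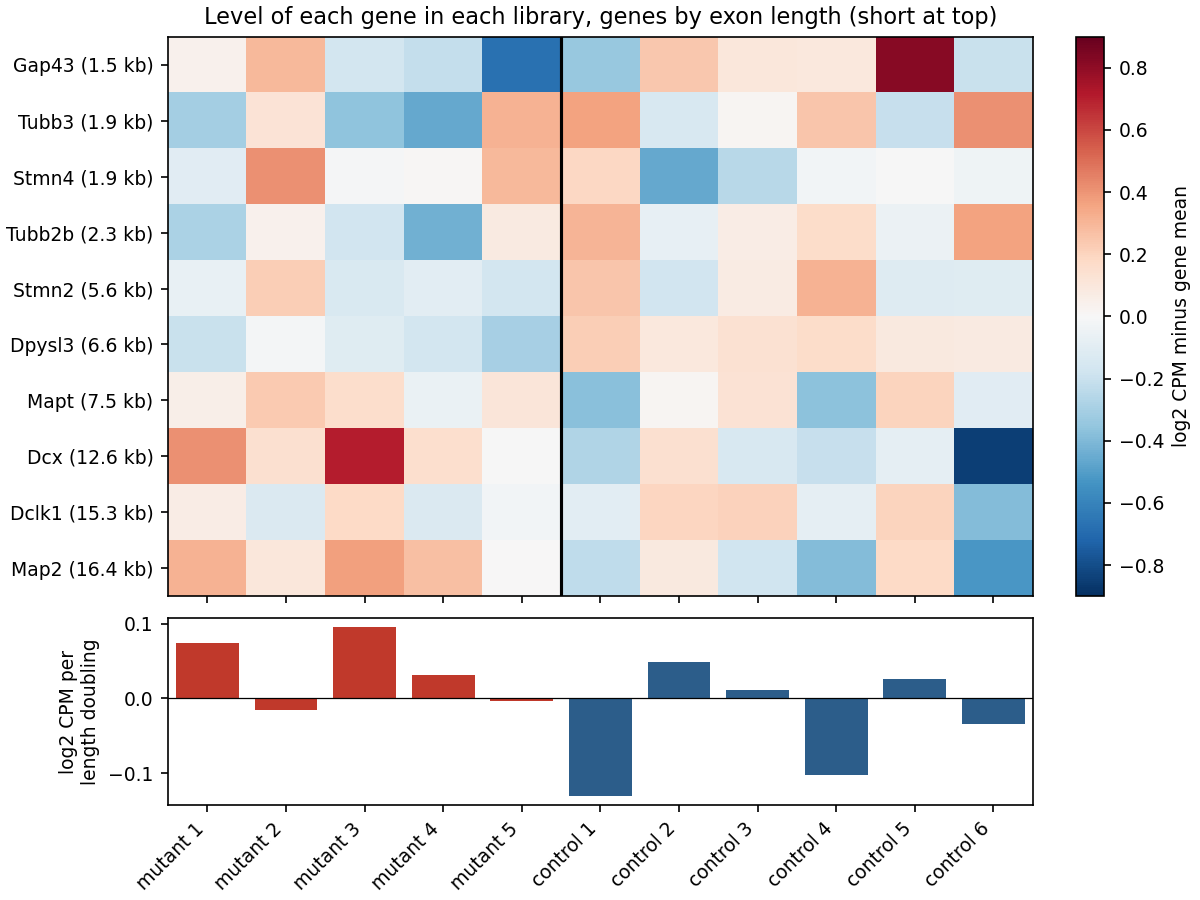
Upper panel, log2 CPM of each gene minus its mean over 11 libraries (colour), with genes from the shortest (Gap43) to the longest exon length (Map2). Lower panel, slope of log2 CPM against exon length per library (y axis, log2 CPM per doubling of length), negative in mutants 2 and 5 and in controls 1, 4 and 6, where Tubb3 is high and Map2 low for their group.

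Compared per kilobase of exon, Tubb3 was the most abundant message in both groups, at 1736 ± 420 CPM per kilobase in mutants (SD, n = 5) and 2050 ± 367 in controls (SD, n = 6). Tubb2b followed at 430 ± 63.6 CPM per kilobase in mutants and 523 ± 66.4 in controls, apart from Gap43 in mutants and overlapping with it in controls. Gap43, Stmn2 and Dpysl3 came next, at 214 to 243 CPM per kilobase in mutants and 234 to 295 in controls, and their ranges overlapped with one another in both groups. Stmn4 averaged 166 CPM per kilobase in mutants and 143 in controls. Mapt and Dcx, at 97.7 and 94.97 CPM per kilobase in mutants and 86.7 and 66.7 in controls, overlapped with each other. Map2 and Dclk1 were lowest, at 52.7 and 30.6 CPM per kilobase in mutants and 40.8 and 31.1 in controls, where they overlapped with each other and Map2 with Dcx. In mutants these 3 lay apart. Exon lengths count all annotated exons of a gene, which overstates the length where short isoforms dominate.

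Related cytoskeletal genes were mostly not past the threshold either, as was so of all 14104 genes tested, of which 4.42% passed with edgeR. DESeq2 called 1201 of 24865 genes with a p-value, and limma-voom 934 of 14104. An unadjusted p of at most 0.05 was reached by 17.3% of all genes. The quartiles of all log2 fold changes were -0.238 and 0.232. Of 15 tubulin genes tested none passed, and 13 had estimates below 0 (median -0.24, 4 at an unadjusted p of at most 0.05, and 1 higher by DESeq2 and by limma-voom), including Tubb5 at 6350 ± 1080 CPM in mutants and 8040 ± 1280 CPM in controls (adjusted p = 0.17). None of 26 kinesin and dynein genes passed with edgeR, DESeq2 or limma-voom (median 0.05, 3 at an unadjusted p of at most 0.05). None of 18 genes of tubulin folding passed with edgeR (median -0.16, 3 at that unadjusted p), and 1 was lower by each of the other tools. By mean level over all libraries the highest of these lists were Klc1, a kinesin light chain gene whose exons overlap Xrcc3, at 740 ± 46.6 CPM in mutants and 632 ± 108 CPM in controls, and Cct7, a chaperonin subunit gene whose exons overlap Pradc1, at 818 ± 64.0 and 773 ± 86.1 CPM in the same order. Of 27 microtubule-associated protein genes 1 rose, Mapre3, which encodes the plus-end protein EB3 (92.1 ± 11.9 CPM in mutants and 64.6 ± 7.54 CPM in controls, log2 fold change 0.51, adjusted p = 0.0327), and the median was 0.08.

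Of 30 growth cone and actin genes, Pfn2, the gene of the actin monomer-binding profilin 2, fell and the other 29 did not pass with edgeR (median -0.13). For this list DESeq2 called 2 higher and 3 lower, and limma-voom 2 higher and 5 lower. Over all genes these tools called 1201 of 24865 and 934 of 14104, in the same order. Pfn2 averaged 920 ± 126 CPM in mutants (SD, n = 5) and 1530 ± 254 CPM in controls (SD, n = 6), with no overlap (log2 fold change -0.73, SE 0.124, adjusted p = 0.00261). Of 22 tubulin-modifying and severing enzymes, Ttll1, which encodes a tubulin polyglutamylase subunit, rose (log2 fold change 0.51, adjusted p = 0.0223) and Fignl1, an ATPase gene related to fidgetin, fell (-0.77, adjusted p = 0.0302), with a median of 0.01. Of 25 kinases and phosphatases of microtubule proteins, Mapk10, which encodes the neuronal kinase JNK3, fell (-0.68, adjusted p = 0.00567, list median -0.01). Of 7 intermediate filament genes Vim fell (-1.15, adjusted p = 0.000387), with a median of -0.40. Vim, the vimentin gene, is a filament of glia and progenitors.

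**Figure D5:**
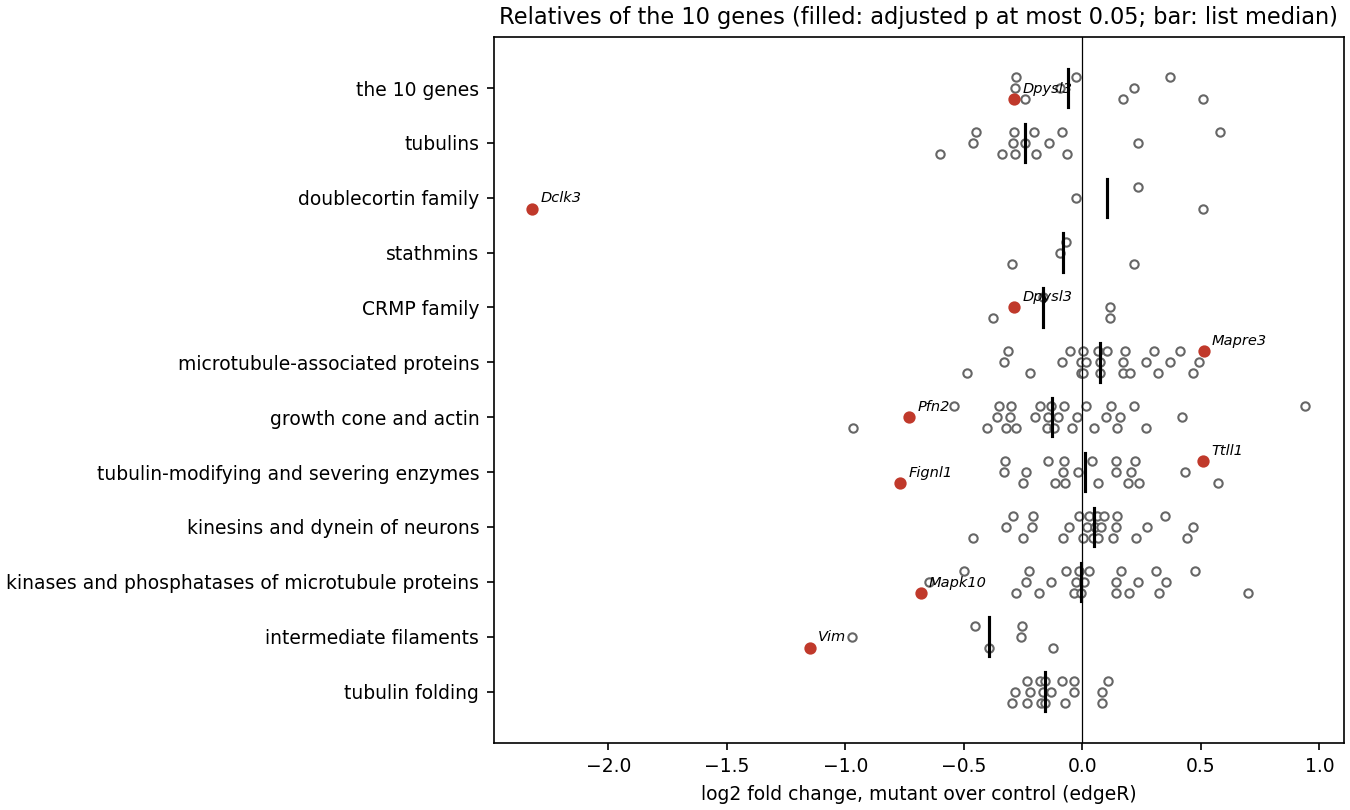
Log2 fold change of mutant over control (x axis) for the 10 genes and 11 lists of related genes, 1 point per gene tested, filled where the adjusted p was at most 0.05, with the list median as a bar. Of 183 different genes 165 lie within 0.5 of 0, and 8 different genes are filled: Dpysl3, Dclk3, Mapre3, Pfn2, Ttll1, Fignl1, Mapk10 and Vim. Over all 14104 genes tested, 4.42% passed.

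Markers of neuroblasts and young neurons, the cell type for which the 10 genes were chosen, moved in both directions. Of 18 tested, Gad2 and Celf4 rose (log2 fold changes 1.01 and 1.25, adjusted p = 0.000894 and 0.00186), Cd24a fell (-0.36, adjusted p = 0.0493) and 15 did not pass (median 0.04). Of 12 genes of dividing cells, Kif2c, Cdk1, Cdca3 and Ccnb1 fell (-0.83, -0.74, -0.88 and -0.83) and 8 did not pass with edgeR (median -0.73). DESeq2 and limma-voom called 6 lower each, and over all genes 539 of 24865 and 379 of 14104 lower. Of 12 radial glia and astrocyte genes Vim and Ednrb fell (median -0.35), and of 8 oligodendrocyte lineage genes Gpr17, whose exons overlap Lims2, fell (median -0.63).

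By the root mean square difference of log2 CPM, each gene centred on its mean over the 11 libraries and compared with 10101 genes, Tubb2b was most like Actb, the beta-actin gene (0.0637), and Tubb3 most like Tubb5 (0.0976). Dpysl3 was most like Sept6 (0.0675), Map2 most like Hif1a (0.0701), Stmn2 most like Uqcrfs1 (0.0882), Stmn4 most like Prune1 (0.0996), Mapt most like Abcb6 (0.104), Dclk1 most like Ddx6 (0.106), Dcx most like Lrrc58 (0.133) and Gap43 most like Ctdspl2 (0.178). Among the 10 genes themselves, Tubb3 and Tubb2b were nearest to each other (0.113), and so were Stmn2 and Dpysl3 (0.159), Dcx and Map2 (0.178), and Dclk1 and Mapt (0.201). Root mean square deviations from a gene's own mean were 0.297 for Tubb3, 0.228 for Tubb2b, 0.381 for Dcx and 0.281 for Map2. They were 0.173 for Stmn2, 0.161 for Dpysl3, 0.18 for Dclk1 and 0.202 for Mapt. For these last 2 pairs the difference was about as large, so being nearest does not show that they varied together. The genes nearest to these 10 did not pass the test, the lowest adjusted p being that of Lrrc58 (0.0527, log2 fold change 0.62).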

How the data were processed

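The authors' deposited table holds raw read counts per Ensembl gene for 11 libraries of sorted GFP-positive V-SVZ cells, made by a TruSeq protocol from column-purified RNA, per the labels' protocols. Tools and builds listed are TopHat2 2.0.13, featureCounts 1.4.6, mm10 and GRCm38, per the submitters' processing notes. Annotation release, strand setting and handling of multi-mapped reads: not given in the sources used here. Symbols, positions and exon lengths came from GENCODE M21 (GRCm38), which matched 37693 of 39179 identifiers. Groups came from the titles. No replicate pair agreed within counting error (chi-square over its degrees of freedom was 13.7 or more), and each library was counted as 1 sample. The value cannot show whether libraries came from separate animals. Over the genes pooled in it, counting error was small beside the spread between libraries, which need not hold for genes with few counts.

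The test was edgeR 4.0.16 under R 4.3.3 (filterByExpr, TMM, robust quasi-likelihood fit, Benjamini-Hochberg adjustment over 14104 genes, threshold 0.05). On simulated data this test recovered 46% of 100 genes changed 2-fold and 82% of 100 changed 4-fold, and called 6 unchanged genes. Those changed genes were drawn from all 14104, so a gene that did not pass may still have changed. Adjusted p-values are from this test unless another tool is named. SEs were derived from the F statistics. Alternatives used DESeq2 1.42.0 and limma 3.58.1, other scalings, filters and thresholds, a replicate block, a Y-linked covariate, the libraries without Y-linked counts, the table without Gm42418, and each library left out. Libraries of the same number did not deviate together (correlations of deviations -0.137 to 0.0207). This cannot show whether they were paired by litter or handling, which the labels do not give. The 10 genes and the lists were chosen with earlier results of these data known. Named genes are the 10, Zeb2, up to 3 called genes per list by adjusted p or else the 1 with the highest level, and the gene most like each of the 10. Ccnb1, Dpysl2, Dpysl4, Dpysl5, Crmp1, Tubb2a and Tubb4a were named after their values were seen. Csf1r, Pdgfrb, Foxj1 and Neurod1, which the rule also names, are given by their lists or in the closing section.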

Additional observations from a re-analysis of the deposited data

Results flagged for a closer look

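Stmn2 in mutant 2 stood at 1479 CPM, apart from the other 4 mutants at 1131 to 1209 CPM, with a gap of 0.775 of the range of the group. The same gene reached 1571 CPM among controls. In such a search chance gives a flag in about 1 in 20 groups, and 38 groups of values were searched.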

How the results depend on the processing

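Dpysl3 kept its sign and lost its call without a filter on low counts (-0.273, adjusted p = 0.102), with the Y-linked covariate (-0.283, adjusted p = 0.294), and among libraries without Y-linked counts (-0.275, adjusted p = 0.356), so 0 of the 10 genes were lower in these fits. With a replicate block it was -0.30 (adjusted p = 0.164), 0 of the 10 were lower, and 412 genes changed, 141 of them lower. Whether libraries of the same number were paired is not given in the labels. Without 1 library Dpysl3 ranged from -0.322 to -0.262 and 0 to 1 of the 10 genes were lower and 0 to 1 higher (Map2, without control 5). Dcx passed with limma-voom (0.485) and at a threshold of 0.1 (0.51), which gives 1 higher gene in each, and ranged from 0.387 to 0.591 without 1 library. Map2 ranged from 0.304 to 0.447 without 1 library and was 0.194 with the exon length trend removed, the lowest of its 24 alternatives. Dclk1 changed sign in 5 fits without 1 library (0.0108, 0.0137 and 0.0124 without control 2, 3 or 5, 0.00666 and 0.00513 without mutant 2 or 4; range -0.0977 to 0.0137), and its difference in share of -4.55 percentage points was -2.12 per kilobase. The other 6 genes kept their sign and stayed short of the threshold in all 24 alternatives.

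Over all genes 623 changed (378 higher, 245 lower), against 1201 (662 and 539) with DESeq2, 189 (123 and 66) with the Y-linked covariate, 218 (150 and 68) among libraries without Y-linked counts, and 976 at a threshold of 0.1, with 421 lower. With limma-voom 379 were lower. Without 1 library 418 to 656 changed, 269 to 405 higher and 149 to 251 lower, the lowest counts being without mutant 3 and those of lower genes moving over 1.5 times also without mutant 1 (156), mutant 4 (160) or control 4 (162). The causes were not tested. With 5 and 6 libraries a group, intervals of the 10 genes span 0.317 to 0.845 on the log2 scale.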

Other observations

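The log2 ratio of Dcx to Tubb2b counts, a value free of the scaling between libraries and chosen after the values were seen, was 0.53, -0.06, 0.71, 0.42 and -0.24 in mutant libraries 1 to 5, and -0.74, 0.05, -0.37, -0.54, -0.19 and -1.38 in control libraries 1 to 6. Mutants 2 and 5 lay within the range of the controls. The ratio sets a gene of 12647 exonic bases against one of 2294, so it is not free of the exon length trend given above. Mutants 2 and 5 and controls 1, 4 and 6, the libraries with negative slopes, had the lowest ratios of their groups. Neurod1, a transcription factor gene of pallial excitatory neurons, rose while at a low level (20.05 ± 9.92 CPM in mutants and 4.76 ± 2.44 CPM in controls, log2 fold change 2.07, adjusted p = 0.0107), and the 8 markers of that type summed to 28.9 to 121 CPM in mutants and 9.34 to 63.8 CPM in controls. Csf1r, Pdgfrb and Foxj1, markers of microglia, pericytes and ependyma, averaged 1.03, 14.3 and 4.31 CPM in mutants and 1.33, 22.3 and 4.92 CPM in controls, and none passed.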
